A study of Mus musculus with 27 samples.

Results

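The Differentiation Front is the zone at the head end of the presomitic mesoderm where unsegmented cells are set aside as the next somite. In the mouse embryo, cells leave the NMP/Caudal Epiblast at the tail, pass through the presomitic mesoderm under high Wnt and FGF signalling, and switch at the front to a somitic programme as those signals fall. Genes that mark the zone include Mesp2, a transcription factor that sets the somite boundary, Ripply2, a repressor that limits Mesp2, and Lfng, a glycosyltransferase that tunes Notch signalling. The front described here is the set of 467 cells that the deposited gastruloid table places in Leiden cluster 4, out of 4637 gastruloid cells (10.1%) and 8784 cells in the whole series. The table calls these cells Somitogenesis Wavefront, and the study's name Differentiation Front was matched to it by the equal cell number. All 467 cells carry the mesoderm label. The values used here are measures per cell and not expression per gene, so the name was not checked against Mesp2, Ripply2 and Lfng.

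Gastruloids are aggregates of mouse embryonic stem cells that form a body axis in culture. All were grown from mESCs of the 129S1/SvImJ / C57BL/6 genotype kept on gelatin in ESLIF, a serum medium with leukaemia inhibitory factor, and all received the Wnt activator chiron after aggregation. Condition 1 mESCs stayed in ESLIF, whereas condition 5 and condition 6 mESCs received a pulse of 2i, a medium that blocks MEK and GSK3, before returning to ESLIF. The pulse was longer in condition 5 than in condition 6. Each condition had 5 single gastruloids, each sorted into its own 384-well plate, so gastruloid and plate cannot be told apart. Between 261 and 348 cells per gastruloid were listed, with median total counts of 7110 to 12136 per cell, and no cell name occurred in more than 1 plate.

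Front cells were found in all 15 gastruloids, and the spread of their share within a condition was as large as the differences between conditions. In condition 1 they made up 10.0% of cells in gastruloid 1A, 14.4% in 1B, 9.4% in 1C, 0.66% in 1D and 7.9% in 1E. In condition 5 the shares were 8.5% in 5A, 10.1% in 5B, 14.9% in 5C, 6.7% in 5D and 5.8% in 5E. In condition 6 they were 7.9% in 6A, 7.8% in 6B, 17.1% in 6C, 17.7% in 6D and 12% in 6E. Condition 6 held both of the highest shares, but 6A and 6B lay within the range of the other conditions. The lowest, 1D, had 2 front cells of 302 (Wilson 95% interval 0.18% to 2.38%), no Presomitic Mesoderm cell (which allows a share of up to 0.993%) and 58.9% Spinal Cord cells. The intervals of share cover counting error only.

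**Figure D1:**
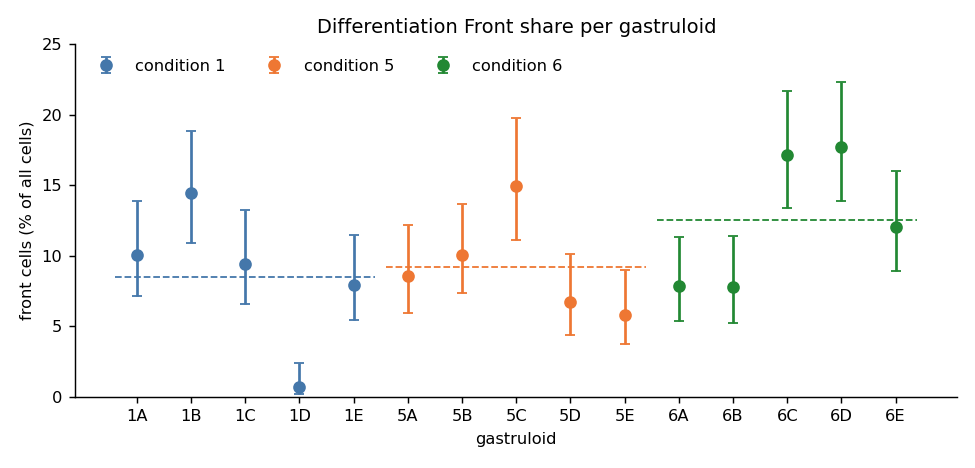
Share of Differentiation Front cells among all listed cells (y axis, percent) in each of the 15 gastruloids (x axis), coloured by condition, with Wilson 95% intervals as bars and condition means as dashed lines. The 3 conditions overlap, and gastruloid 1D lies below the other 14.

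Mean shares were 8.49% ± 5.00 (SD, n = 5) in condition 1, 9.22% ± 3.6 (SD, n = 5) in condition 5 and 12.5% ± 4.8 (SD, n = 5) in condition 6. None of the 3 differences passed the test. By exact two-sided rank-sum tests multiplied by 3, corrected p was 1 for condition 1 against 5, 1 for condition 1 against 6 and 0.929 for condition 5 against 6, where the smallest corrected p that 5 against 5 gastruloids allow is 0.0238. The sign of the small difference between conditions 1 and 5 turned with the denominator. Of the 4 types of the somitic series (Presomitic Mesoderm, front, Early Somite and Somite), front cells were 15.6% ± 6.2 (SD, n = 5) in condition 1, 12.5% ± 4.8 (SD, n = 5) in condition 5 and 16.6% ± 5.8 (SD, n = 5) in condition 6.

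The front was also set against the tissue that feeds it. As a share of Presomitic Mesoderm and front cells together, a denominator chosen after the values were seen, front cells were 75.6% in 1A, 61.1% in 1B, 80.0% in 1C and 40.3% in 1E, whereas in condition 5 they ran from 25.6% to 47.0% and in condition 6 from 39.0% to 50.5%. In 1D both such cells were front cells. Front cells thus outnumbered Presomitic Mesoderm cells in 4 of 5 condition 1 gastruloids, 1D included, in none of condition 5 and in 1 of 5 of condition 6 (6C, 55 against 54 cells). The means were 71.4% ± 22.3 (SD, n = 5), 36.5% ± 8.3 (SD, n = 5) and 44.3% ± 5.2 (SD, n = 5), with corrected exact p of 0.0952 for condition 1 against 5 and 0.286 for condition 1 against 6. Without 1D the condition 1 mean was 64.3% and the corrected exact p were 0.190 and 0.571.

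Across the 15 gastruloids, the front share was compared with the shares of the types before and after it, after subtracting each condition's mean. The strongest relation was with Presomitic Mesoderm, with Pearson's r of 0.57 (permutation p = 0.0497, adjusted p = 0.199 over 4 types) and Spearman's rho of 0.50 (permutation p = 0.0793). It was 0.39 (permutation p = 0.205) without 1D and 5E, the gastruloids farthest from the median of the condition-centred Presomitic Mesoderm share, so it rested on them in part. For Early Somite r was -0.03 (permutation p = 0.917, rho 0.06), for Somite 0.24 (permutation p = 0.409, rho 0.37) and for NMP/Caudal Epiblast 0.36 (permutation p = 0.272, rho 0.21). None passed, and shares that sum to a whole constrain each other.

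On the deposited UMAP, a 2-dimensional map of the cells by expression, the front formed a band that ran from the edge of the Presomitic Mesoderm to the edge of the somitic cells. Of the 15 nearest cells of each front cell, 85.5% were front cells on average, and 277 front cells (59.3%) had front neighbours only. The neighbours outside the front were mostly somitic, with 8.45% Early Somite and 4.21% Somite against 1.78% Presomitic Mesoderm and 0.029% NMP/Caudal Epiblast. Among all gastruloid cells these types made up 19.5%, 24.0%, 12.1% and 11.4%, in the same order. At least 1 somitic neighbour was found for 162 front cells (34.7%), at least 1 presomitic neighbour for 42 (8.99%), and both for 14 (3.00%). Seen from the other types, front cells were 4.47% of the neighbours of Early Somite cells, 1.81% of those of Somite cells and 1.56% of those of Presomitic Mesoderm cells. The contact with Early Somite was uneven. In Leiden cluster 8, the smaller of the 2 Early Somite clusters with 254 cells, 9.55% of neighbours were front cells, against 2.48% in cluster 1 with 649 cells. Neighbours on a UMAP are set by the embedding and are given as a description.

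Front cells of different gastruloids were largely mixed on this map, with some excess of neighbours from the same gastruloid. Among front neighbours of front cells, 10.6% came from the same gastruloid, where the gastruloids' front cell numbers alone give 7.76%.

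**Figure D2:**
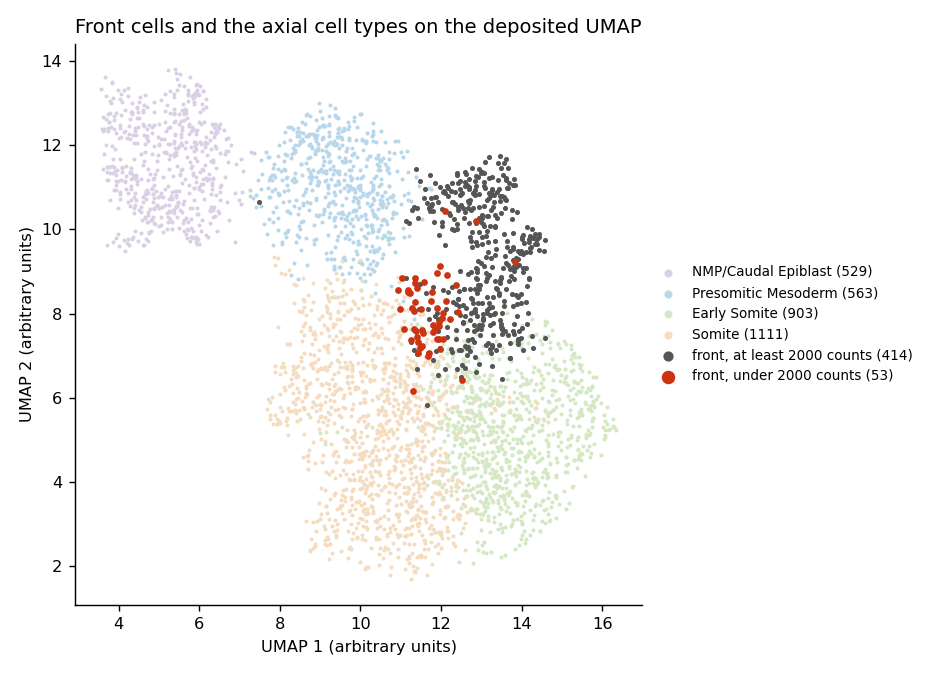
Positions of the cells of 5 types on the deposited UMAP (both axes in arbitrary units), with front cells in dark grey, or in red where they had under 2000 counts. The front bridges Presomitic Mesoderm and Early Somite, and most of the 53 red cells lie on its Somite-facing edge.

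Each front cell was then placed on the presomitic or the somitic side by its nearest cell outside the front among Presomitic Mesoderm, NMP/Caudal Epiblast, Early Somite and Somite. The nearest such cell was Presomitic Mesoderm for 170 front cells (36.4%), Early Somite for 245 (52.5%), Somite for 52 (11.1%) and NMP/Caudal Epiblast for 0. In condition 1 the presomitic side held 32.3% of front cells in 1A, 25% in 1B, 39.3% in 1C and 32% in 1E. In condition 5 it held 48.1% in 5A, 28.6% in 5B, 30.8% in 5C, 35.0% in 5D and 22.2% in 5E. In condition 6 it held 48.0% in 6A, 65.2% in 6B, 32.7% in 6C, 39.3% in 6D and 43.6% in 6E. Gastruloid 6B stood highest, and the conditions overlapped. The means were 32.1% ± 5.8 (SD, n = 4), 32.9% ± 9.7 (SD, n = 5) and 45.8% ± 12.2 (SD, n = 5), with corrected exact p of 0.119 for condition 1 against 6, 0.452 for condition 5 against 6 and 1 for condition 1 against 5. Gastruloid 1D, with fewer than 5 front cells, was left out of this and of all following comparisons.

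Cell cycle phase had been assigned by the authors from expression scores, so phases and scores against other types are given without a test. Most front cells were called S phase: 315 of 467 (67.5%), with 126 (27%) in G2M and 26 (5.57%) in G1. Over all cells pooled, the front lay between its neighbours. The S phase share was 61.1% in Presomitic Mesoderm, 67.5% in the front and 76.3% in Early Somite, and the G2M share was 35.3%, 27% and 16.1%. Somite cells did not continue this order, with 34.7% in S and 61.1% in G2M.

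Within single gastruloids the contrast with Somite was seen everywhere. The S phase share of the front was higher in 14 of 14 gastruloids, at 66.4% ± 8.8 (SD, n = 14) against 31.3% ± 11.4 (SD, n = 14), and the G2M share was lower in 14 of 14, at 27.9% ± 7.8 (SD, n = 14) against 65.1% ± 14.7 (SD, n = 14). Against Presomitic Mesoderm, the G2M share of the front was lower in 13 of 14 gastruloids, by 9.31 percentage points on average, and the S phase share was higher in 10 of 14. Against Early Somite, the S phase share was lower in 11 of 14 gastruloids and the G2M share higher in 11 of 14, and the 3 exceptions in S were all of condition 6. The mean G2M score of the front was below that of all other cells in 14 of 14 gastruloids (0.0108 ± 0.0047 against 0.0243 ± 0.0041, SD, n = 14), whereas the mean S score was nearly equal (0.0367 ± 0.0073 against 0.0364 ± 0.0027, SD, n = 14). By type, the G2M score was lower than in Somite in 14 of 14 and than in Presomitic Mesoderm in 12 of 14. It was higher than in Early Somite in 12 of 14. The S score was higher than in Somite in 13 of 14 and lower than in Early Somite in 12 of 14.

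**Figure D3:**
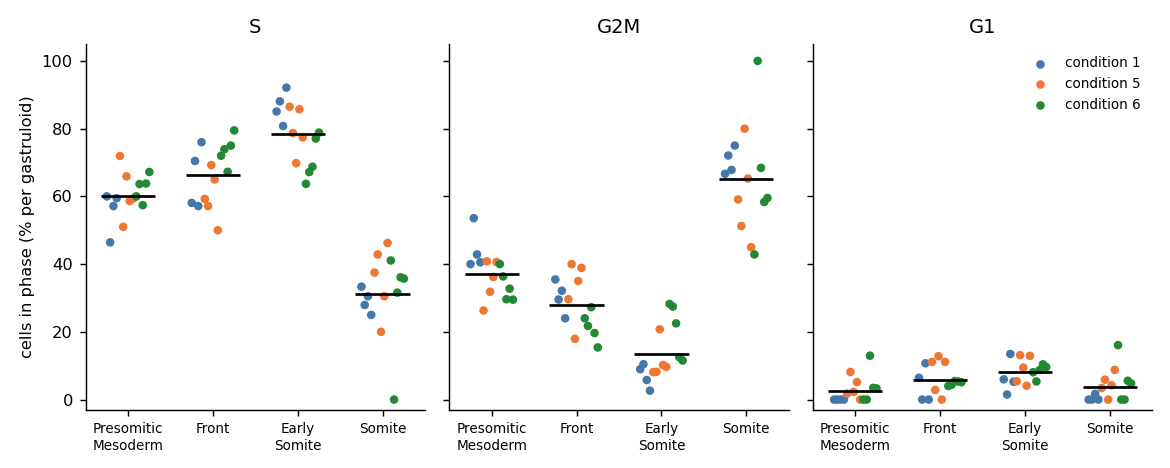
Share of cells called S, G2M or G1 (y axis, percent) in Presomitic Mesoderm, front, Early Somite and Somite in each of 14 gastruloids, coloured by condition, with means over gastruloids as black lines. Over all 14 gastruloids the front mean lies between those of Presomitic Mesoderm and Early Somite in S and G2M, but in condition 6 the front and Early Somite points lie at like levels. In condition 5 the front mean in S (60.1%) lies below that of Presomitic Mesoderm (61.4%).

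In S phase share, the order of the front and Early Somite means was not the same in every condition. In condition 1 the S phase share was 65.4% ± 9.3 (SD, n = 4) in the front and 86.5% ± 4.8 (SD, n = 4) in Early Somite, and in condition 5 it was 60.1% ± 7.4 (SD, n = 5) and 79.6% ± 6.8 (SD, n = 5). In condition 6 it was 73.5% ± 4.5 (SD, n = 5) in the front and 71.1% ± 6.5 (SD, n = 5) in Early Somite. Presomitic Mesoderm had 55.8% ± 6.3 (SD, n = 4), 61.4% ± 7.9 (SD, n = 5) and 62.4% ± 3.8 (SD, n = 5) in conditions 1, 5 and 6. The front mean in S thus lay between those of its neighbours in condition 1 only. Front minus Early Somite in S ran from -27.0 to -16.1 percentage points in condition 1, from -27.4 to -0.58 in condition 5 and from -2.08 to 8.29 in condition 6. Conditions 1 and 6 did not overlap, and their difference of -23.5 percentage points had a corrected exact rank-sum p of 0.0476, the smallest that 4 against 5 gastruloids allow. In G2M, front minus Early Somite ran from 19.1 to 26.5 percentage points in condition 1 and from -5.74 to 7.14 in condition 6 (corrected exact p = 0.0476). For condition 5 against 6 the corrected exact p was 0.0952 in S and 0.167 in G2M. Early Somite cells moved as well as front cells, from 6.95% ± 3.48 in G2M (SD, n = 4) in condition 1 to 20.4% ± 8.0 (SD, n = 5) in condition 6. These comparisons were chosen after the values were seen, and none of the 45 of their kind passed adjusted over all of them (smallest adjusted exact p = 0.143).

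Between conditions, no cell cycle measure of the front alone passed the test. The mean S score was 0.0384 ± 0.0076 (SD, n = 4) in condition 1, 0.0309 ± 0.0059 (SD, n = 5) in condition 5 and 0.0411 ± 0.0052 (SD, n = 5) in condition 6, and the corrected exact p for condition 5 against 6 was 0.0952. That difference of -0.0103 was -0.00915 with at least 1000 counts per cell and -0.00954 with at least 2000, where the corrected exact p was 0.0238 in both. All other cells of the same gastruloids had mean S scores of 0.0348 ± 0.0026 (SD, n = 5) in condition 5 and 0.0364 ± 0.0025 (SD, n = 5) in condition 6. The G1 share of the front was 4.29% ± 5.25 (SD, n = 4), 7.58% ± 5.75 (SD, n = 5) and 4.86% ± 0.65 (SD, n = 5) in conditions 1, 5 and 6. Over the 9 comparisons of S score, G2M score and G1 share, corrected exact p ran from 0.0952 to 1.

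The front was compared with its neighbours in total counts per cell. Its cells had a median of 8758 total counts (quartiles 5645 to 12075) and 4149 genes (quartiles 3178 to 4972). Median total counts were higher than in Early Somite in 11 of 14 gastruloids, by 1708 ± 1309 counts (SD, n = 14, exact sign-flip test, adjusted p = 0.00293). They were lower than in Somite in 12 of 14 gastruloids, with a mean difference of -1059 ± 1220 counts (SD, n = 14, exact sign-flip test, adjusted p = 0.00645), but this call was lost within cell cycle phases (-390 counts, exact test, adjusted p = 0.341) and with at least 2000 counts per cell. The difference from Presomitic Mesoderm, -788 ± 1692 counts (SD, n = 14), did not pass (exact sign-flip test, adjusted p = 0.106), and front cells were lower in 9 of 14 gastruloids. Genes per cell followed the same order without a test, with 12 of 14 gastruloids above Early Somite and 12 of 14 below Somite. Against NMP/Caudal Epiblast, also without a test, median total counts of the front were lower in 14 of 14 gastruloids (mean difference -1513.5 counts).

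The mitochondrial share of reads was lower in the front than in each of the 3 neighbouring types. The front median over gastruloids averaged 4.71% ± 0.35 (SD, n = 14). It was below Early Somite in 13 of 14 gastruloids, at 5.40% ± 0.47 (SD, n = 14, exact sign-flip test, adjusted p = 0.00146). It was below Somite in 13 of 14, at 5.06% ± 0.48 (SD, n = 14, exact sign-flip test, adjusted p = 0.00513). It was below Presomitic Mesoderm in 11 of 14, at 5.03% ± 0.46 (SD, n = 14, exact sign-flip test, adjusted p = 0.00641), a call that was just missed within cell cycle phases (exact test, adjusted p = 0.0513). The mean differences were -0.69, -0.35 and -0.32 percentage points. Against NMP/Caudal Epiblast, without a test, the front was higher in 7 and lower in 7 of 14 gastruloids, with a mean difference of -0.107 percentage points. The study's methods state that counts, mitochondrial share and phase were regressed out of the expression values before clustering, and the part of that step in these differences was not tested.

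**Figure D4:**
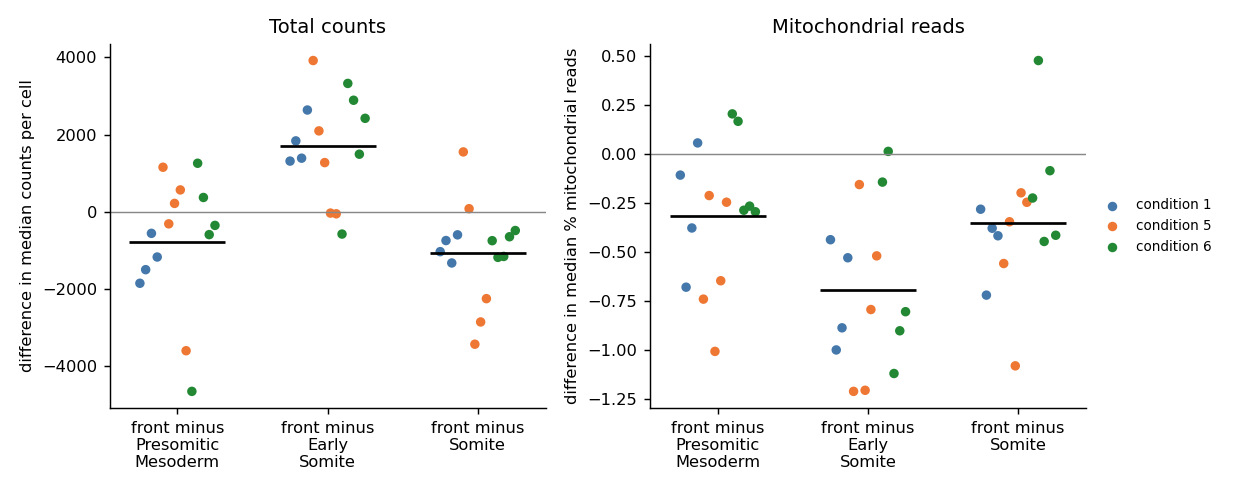
Front minus Presomitic Mesoderm, Early Somite or Somite in median total counts per cell (left) and in median percent mitochondrial reads (right, percentage points), 1 point per gastruloid coloured by condition, n = 14, with means as black lines. In the right panel 11, 13 and 13 of the 14 points lie below 0.

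The mitochondrial share of the front was also compared between conditions 1 and 6. It was 5.12%, 4.75%, 4.81% and 5.47% in 1A, 1B, 1C and 1E, and 4.39%, 4.69%, 4.35%, 4.11% and 4.53% in 6A to 6E. The groups did not overlap, and the difference of 0.62 percentage points had a corrected exact p of 0.0476, the smallest that 4 against 5 gastruloids can give. It did not pass when the exact p was adjusted over all 9 comparisons of counts, genes and mitochondrial share (Benjamini-Hochberg, adjusted p = 0.143). Condition 5 lay between, at 4.74% ± 0.25 (SD, n = 5). With at least 1000 or at least 2000 counts per cell the difference was of like size, 0.581 and 0.575 percentage points, but was not called (corrected exact p = 0.0952 in both). All other cells of the same gastruloids had 5.31% ± 0.19 (SD, n = 4) in condition 1 and 4.71% ± 0.33 (SD, n = 5) in condition 6. Median total counts of the front were 8630 ± 729 (SD, n = 4), 8772 ± 2114 (SD, n = 5) and 9943 ± 2349 (SD, n = 5) in conditions 1, 5 and 6, and neither counts nor genes per cell passed (corrected exact p of 1 in all 6 comparisons).

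A subset of front cells held very few counts. Under 2000 counts, a limit set after the values were seen, lay 53 of 467 front cells (11.3%, Wilson 95% interval 8.78% to 14.5%), against 3.02% of Presomitic Mesoderm, 5.32% of Early Somite and 3.96% of Somite cells. This was the highest share of the 11 cell types. Front cells made up 9.43% of the cells with at least 2000 counts, 21.6% of the 245 cells under 2000 and 27.3% of the 143 cells under 1000. Within gastruloids the low-count share of the front was 12.9% ± 9.7 (SD, n = 14) against 4.53% ± 2.01 (SD, n = 14) in all other cells, higher in 12 of 14 gastruloids (exact sign-flip test chosen after the values were seen, adjusted p = 0.00562). That test takes the cluster call as given. Whether low counts helped to place these cells in the front was not tested, so its p-value describes the cluster as called. The low-count share of the front ran from 0 of 56 cells in 6D, which allows a share of up to 5.36%, and 1.82% in 6C to 24.0% in 6A and 33.3% in 5E. At least 1 such front cell was found in 14 of the 15 gastruloids.

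**Figure D5:**
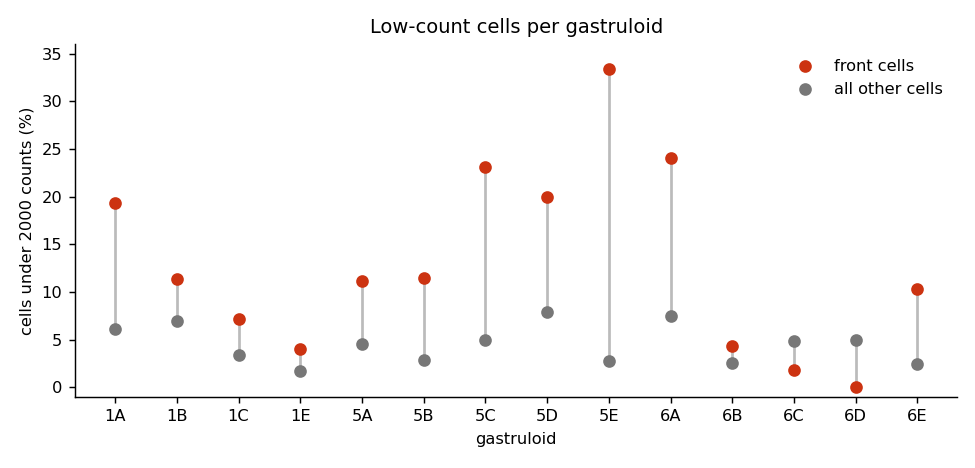
Share of cells under 2000 counts (y axis, percent) among front cells (red) and all other cells (grey) in each of 14 gastruloids. The front lies higher in 12 of them and lower in 6C and 6D.

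These cells lay at one edge of the front. Of the 53, 36 were nearest to a Somite cell, 15 to an Early Somite cell and 2 to a Presomitic Mesoderm cell. Conversely, 36 of the 52 front cells nearest to Somite had under 2000 counts, and those 52 had a median of 970 counts. The phase calls of the 53 were 35 in S, 13 in G2M and 5 in G1, close to those of the other front cells (280, 113 and 21 of 414). Their median mitochondrial share was 4.26%, against 4.72% in the other front cells. Cells had been sorted with DAPI, a dye that enters dead cells, to assess viability, and the part of dying or broken cells in this subset was not tested.

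The sides of the front differed in counts when the low-count cells were included. With all cells, median total counts on the presomitic side exceeded those on the somitic side in 11 of 13 gastruloids, at 10014 ± 2082 against 8725 ± 1514 (SD, n = 13, exact sign-flip test, adjusted p = 0.0469). With cells of at least 2000 counts only, the presomitic minus somitic difference was -103 counts (exact sign-flip test, adjusted p = 0.830). Mitochondrial share did not differ beyond the spread between gastruloids (0.16 ± 0.47 percentage points, SD, n = 13, exact sign-flip test, adjusted p = 0.256). The mean S score was lower on the presomitic side, without a test, in 10 of 13 gastruloids with all cells (0.0314 ± 0.0100 against 0.0425 ± 0.0076, SD, n = 13) and in 11 of 13 with at least 2000 counts. The phase calls were less regular. The S phase share averaged 62.7% ± 15.1 on the presomitic side against 71.9% ± 13.9 on the somitic side (SD, n = 13). Yet it was higher on the presomitic side in 6 and lower in 7 of 13 gastruloids. The G2M share averaged 30.5% ± 12.6 against 24.1% ± 13.8 (SD, n = 13), and was likewise higher in 6 and lower in 7.

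The differences from whole neighbouring types were less tied to these cells. With at least 2000 counts in every cell, the front stayed 2201 counts above Early Somite (exact sign-flip test, adjusted p = 0.000732), whereas the difference from Somite was -546 counts and no longer passed (exact sign-flip test, adjusted p = 0.106). The mitochondrial differences were -0.67, -0.32 and -0.29 percentage points from Early Somite, Somite and Presomitic Mesoderm, and all 3 still passed (exact sign-flip test, adjusted p of 0.000732, 0.0117 and 0.0134).

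A second grouping of the same cells, in a column that the table does not describe, divided the front along similar lines. Since the grouping and the sides on the UMAP come from the same cells, their overlap is a description and no independent check. It placed 239 front cells in group 3 together with 178 Early Somite cells, 147 in group 9, which held 156 cells in all, and 64 in group 10. Group 9 was the presomitic end, with 145 of its 147 front cells on the presomitic side, and group 3 the somitic end, with 221 of 239 on the somitic side. The mean S score was 0.0301 in group 9 and 0.0421 in group 3. Group 10 held 143 cells of 6 types with a median of 1345 counts, and 44.8% of them were front cells. Of its 64 front cells, 40 had under 2000 counts and 44 were nearest to Somite. Group 9 was present in 15 gastruloids and group 3 in 14, and group 9 outnumbered group 3 in 5A, 6A, 6B and, with 1 cell, 1D.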

How the data were processed

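Single cells of 15 gastruloids were sorted by FACS and processed with CEL-seq2, a 3' method with molecular identifiers. Per the labels and the study's methods, reads were trimmed with cutadapt 4.1, mapped with STAR 2.5.3a to GRCm38 and deduplicated, and cells low in reads or genes or high in mitochondrial reads were removed. The authors then regressed out counts, mitochondrial share and phase, clustered the cells and computed a UMAP. The table deposited by the authors gives each cell its total count, genes, mitochondrial fraction, S and G2M score, phase, cluster and UMAP position. Fractions are printed as percent. The study's methods name no doublet caller and none was run here, and the mESC table gave only a number of cells.

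Cells were summarised per gastruloid (median counts, genes and mitochondrial share, mean scores, shares), since cells are not replicates. Conditions were compared by exact two-sided rank-sum tests, with p multiplied by 3, and types within gastruloids by exact two-sided sign-flip tests with Benjamini-Hochberg adjustment. A value was called below 0.05, and at least 5 cells were required on each side. The front against the other types was tested only on counts and mitochondrial share, since phases and scores come from the expression that was clustered. Counts and mitochondrial share were regressed out before clustering, as phase was, and whether they still shaped the clusters was not tested. Differences in phase and score between the front and a type were compared between conditions by the rank-sum test, added after the values were seen. Correlations used 100000 permutations within conditions. Scripts used numpy and scipy and were tested on simulated data. Labels and columns were matched through the plate name, and no column was left unmapped. The cells and lists were chosen with earlier results of these data known. The labels do not say that equal replicate numbers mark a shared batch or day. Alternatives were filters on counts and mitochondrial share, other cell minimums, denominators, tests and neighbour rules, and leaving out each gastruloid.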

Additional observations from a re-analysis of the deposited data

Results flagged for a closer look

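The front's difference from its neighbours in cell cycle calls varied between pre-culture conditions in 5 of 45 exact rank-sum tests corrected over the 3 pairs of conditions, all chosen after the values were seen, and in none adjusted over all 45. Front minus Early Somite differed between conditions 1 and 6 by -23.5 percentage points in S, 22.2 percentage points in G2M and 0.0108 in mean G2M score (corrected exact p = 0.0476 each). Front minus Presomitic Mesoderm differed by -12.4 percentage points in S for condition 5 minus 6 (-1.24 ± 9.08 against 11.1 ± 1.0, SD, n = 5 each, corrected exact p = 0.0238) and by -0.00804 in mean G2M score for condition 1 minus 5 (corrected exact p = 0.0476). Alternatives were run for the S and G2M shares against Early Somite.

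In condition 5, gastruloid 5C stood apart in front minus Early Somite, with -0.58 percentage points in S against -27.4 to -20.7 in the other 4. It was the only value that stood apart by Dixon's test in 57 groups of 4 or 5 gastruloids. Chance gives about 1 in 20 groups, so 1 such value is no more than chance alone would give.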

How the results depend on the processing

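The higher counts of the front against Early Somite and its lower mitochondrial share against Early Somite and Somite passed the test under every alternative run and without each gastruloid. Against Presomitic Mesoderm, the mitochondrial difference missed it within cell cycle phases (-0.289 percentage points), and the count difference passed it with means over cells (-1250). The count difference from Somite no longer passed within cell cycle phases (-390) or with at least 2000 counts per cell (-546). The low-count excess over Early Somite did not pass with a limit of 3000 counts (4.74 percentage points). The count difference between the presomitic and somitic sides was called by a narrow margin. It was 199 with at least 1000 counts per cell, -103 with at least 2000, 1016 with a minimum of 3 cells, 753 with a minimum of 10, and 1024 to 1466 when gastruloids were left out in turn, where 9 of 15 omissions lost the call.

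The mitochondrial difference of the front between conditions 1 and 6 was 0.581 with at least 1000 counts per cell, 0.575 with at least 2000, 0.731 with means over cells and 0.478 to 0.716 with each gastruloid left out, designs of which most cannot reach the threshold. The labels share replicate numbers between conditions. Deviations of cell type shares correlated at -0.50 to 0.34 between same-numbered gastruloids (over 0.1 in 7 of 15 pairs). Such correlations cannot decide whether equal numbers mark a shared batch or day. With the number as a replicate block the mitochondrial difference was 0.650 percentage points, and the condition 1 minus 6 difference of front minus Early Somite was -24.0 in S and 22.9 in G2M. These 3 were not called, since so few pairs cannot reach the threshold. No result between conditions could be called in this setting, so it does not test the calls. The S score difference between conditions 5 and 6 passed at -0.00915 and -0.00954 with at least 1000 and 2000 counts, and ran from -0.0121 to -0.00796 with gastruloids left out, passing without 5C. For front minus Early Somite, condition 1 minus 6 ran with gastruloids left out from -25.2 to -21.5 percentage points in S and 20.5 to 23.7 in G2M. Condition 5 minus 6 passed in S with at least 1000 and 2000 counts (-21.4 and -20.5) and, without 5C, in both S and G2M (ranges -26.6 to -19.9 and 17.0 to 25.7). Condition 1 minus 5 ran from -3.57 to 3.14 in S and -3.49 to 5.16 in G2M.

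Differences that never passed changed sign in some settings. For condition 1 minus 5, the front share was 3.12 percentage points of the 4 somitic-series types, 3.39 of mesoderm, 34.9 of Presomitic Mesoderm and front cells, 0.0197 with at least 2000 counts, and -2.21 to 1.23 with gastruloids left out. Condition 1 minus 6 was 27.1 of Presomitic Mesoderm and front cells. With means over cells, condition 1 minus 5 was 184 counts and 173 genes, and with gastruloids left out it ran from -777 to 592 counts, -221 to 144 genes, -0.00103 to 0.00348 in G2M score and -3.49 to 3.00 percentage points on the presomitic side. For condition 1 minus 6, the G1 share was 0.135 and 0.222 percentage points with at least 1000 and 2000 counts and -2.71 to 0.864 with gastruloids left out, and the S score ran from -0.00551 to 0.00016. The correlations ran from -0.33 to 0.21 for Early Somite and -0.0697 to 0.56 for NMP/Caudal Epiblast. The causes of these changes were not tested. None of the 36 tests of whether differences in counts, mitochondrial share or low-count share varied between conditions passed (smallest corrected exact p = 0.0952).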
